A study of Mus musculus with 75 samples.

Results

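The contractile genes of smooth muscle were followed in mouse lung through the injury and repair that bleomycin (BLEO) sets off. The set held 10 genes, picked by name among the 55536 genes of the count table: Acta2, Tagln, Myh11, Cnn1, Actg2, Des, Myl9, Lmod1, Tpm2 and Myocd. All 10 passed the filter on low counts and were among the 16221 genes tested. RNA had been taken from the right lung, its inferior lobe, in 75 male C57BL/6JRj mice, 1 library per mouse. BLEO-IPF mice were 12 to 14 weeks old when they received BLEO sulphate into the trachea, a single time. They were killed on day 7 (n = 10), day 14, day 21, day 28 or day 35 (n = 12 each) or day 42 (n = 7), so age at sampling rose with the day. No age or day of sampling is listed for the control mice. The 10 control mice (CTRL) are labelled saline in 1 field and untreated in another, so their handling cannot be stated with certainty. The BLEO-IPF mice are a selected population, since the animals allocated to the time points had lost between 5 and 17% of body weight by day 6. Each time point held different animals.

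Smooth muscle cells contract when myosin pulls on actin filaments. Acta2 and Actg2 encode the smooth muscle actins, Tpm2 (tropomyosin), Tagln (transgelin, SM22) and Cnn1 (calponin) bind actin, Myh11 and Myl9 encode a heavy and a regulatory light chain of myosin, Lmod1 (leiomodin) starts new actin filaments, and Des (desmin) forms the intermediate filaments of muscle cells. Myocd (myocardin) is the coactivator that, together with serum response factor (Srf), switches these genes on through a DNA motif called the CArG box. In healthy lung they belong mainly to the smooth muscle of airways and vessels, while Acta2 and Tagln are also the usual marks of the myofibroblast, the contractile and collagen-secreting cell of fibrotic tissue. Myh11, Cnn1 and Lmod1 are generally read as marks of mature smooth muscle.

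Promoter sequence is shown first because the CArG box is the element these genes are known to share. RefSeq promoters on GRCm38.p6, each reaching from 250 bases before the start of transcription to 50 bases after it, were matched for 6 of the 10 genes, namely Acta2, Cnn1, Des, Myl9, Lmod1 and Tpm2. The box was searched as CC, a core of 6 bases that are all A or T, and GG, which reads alike on both strands. A near match was allowed 1 G or C in the core. Stretches of the 2 promoters that held a match follow, 5′ to 3′ along the gene, with the matches in capitals.
Acta2 (chr19:34255374-34255487, minus strand): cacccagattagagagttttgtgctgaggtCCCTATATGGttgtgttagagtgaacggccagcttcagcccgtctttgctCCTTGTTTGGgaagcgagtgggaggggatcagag
Myl9 (chr2:156775273-156775404, plus strand): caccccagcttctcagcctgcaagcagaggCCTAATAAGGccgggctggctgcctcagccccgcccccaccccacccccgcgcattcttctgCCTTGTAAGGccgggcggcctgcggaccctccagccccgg
In Acta2 both matches were near matches, at bases 84 to 75 and 34 to 25 before the RefSeq start. That start lies inside the Ensembl gene span of Acta2, which reaches to 34255590, so both matches lie inside that span. Myl9 had a complete CArG box at bases 161 to 152 and a near match at bases 99 to 90. No match lay in the windows of Cnn1, Des, Lmod1 and Tpm2. Among all 32851 RefSeq promoters of 300 bases, 1.63% held a CArG box and 9.98% held a box or a near match. Of the 2 genes with matches, Acta2 rose after BLEO and Myl9 passed the main test on no day. Sequence outside these windows was not searched, so a gene without a match here may still have a CArG box. Any link between motif and response was not tested.

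Levels are given as CPM, the read count set against the library's total and scaled by TMM factors, and compared between groups of mice for one gene at a time. Total counts ranged from 9240291 to 14665247 per library. The surfactant gene Sftpc, a defining marker of lung, stood at 13880 ± 1109 CPM (SD, n = 10) in CTRL. One library stood apart: replicate 10 of day 28 held RNA of striated muscle, and results that rest on it are given with and without it. In bulk lung, fewer cells of a type and less RNA per cell cannot be told apart. Differences are log2 fold changes (log2FC) ± standard error from the edgeR fit, and a gene was called higher or lower at an adjusted p under 0.05.

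After BLEO the 10 genes did not move as a block. Acta2, Tagln, Actg2, Tpm2 and Des rose, with their largest values on day 7 or 14, and none of them was called on day 35 or 42. Myh11 was lower on every day from day 14 to day 42. Cnn1 and Lmod1 were lower on days 14, 21 and 28, were not called on day 35, and were called lower on day 42, a call that was lost when some single mice were left out. Myl9 and Myocd were not called on any day. On day 14, 5 of the 10 genes were higher and 3 lower, beside 32.4% of all tested genes called higher and 29.9% called lower. The log2FC of the 10 genes ran from -0.64 to 0.78 on that day. Their median of 0.52, against 0.01 over all tested genes, therefore describes no common shift.

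**Figure D1:**
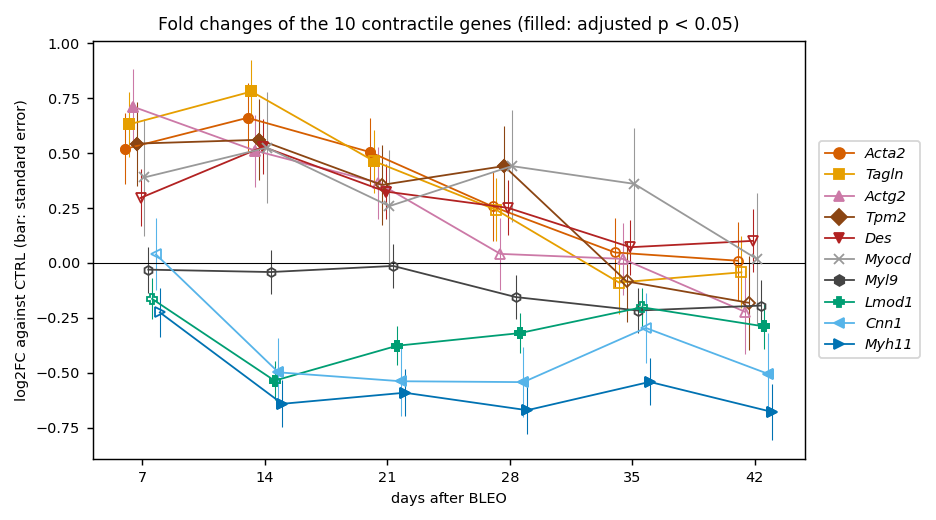
Log2FC against CTRL (y axis) of the 10 contractile genes on days 7 to 42 after BLEO (x axis, genes slightly offset). Bars are standard errors and filled symbols an adjusted p under 0.05. Acta2, Tagln, Actg2, Tpm2 and Des lie between 0.51 and 0.78 on day 14, and Myh11, Cnn1 and Lmod1 between -0.64 and -0.50.

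On day 7, 4 genes were higher and none lower by edgeR, where 24.8% and 21.0% of tested genes were called. At an unadjusted p under 0.05, Des was also higher and Myh11 lower. On day 21, 3 genes were higher and 3 lower (28.3% and 25.8% of tested genes). On day 28 the numbers were 1 and 3 (24.1% and 19.2%), and the single gene called higher, Tpm2, depended on the library rich in striated muscle RNA. On day 35 only Myh11 remained called, in the lower direction, and none was higher (13.1% of tested genes were lower and 16.9% higher). On day 42 there were 3 lower and none higher (11.0% and 13.7%). At an unadjusted p under 0.05 none was higher on these last 2 days either. DESeq2 made the same calls for all 10 genes on all 6 days.

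Acta2, on chromosome 19 from 34241090 to 34255590 (minus strand, GRCm38), encodes α-smooth muscle actin and was the second most abundant of the 10 genes per length. CTRL mice had a lowest level of 190.9, a median of 221.5 and a highest of 250 CPM. On day 7 the lowest, median and highest were 248.4, 310.5 and 462.9 CPM, and on day 14 they were 228.8, 296.8 and 599.0 CPM. Most mice of both days therefore stood above every CTRL mouse (9 of 10 and 10 of 12), but the ranges overlapped. Acta2 was called higher on 3 days, with a log2FC of 0.52 ± 0.16 (day 7, adjusted p = 0.00654), 0.66 ± 0.16 (day 14, adjusted p = 0.000207) and 0.50 ± 0.16 (day 21, adjusted p = 0.00487). On day 28 it was 0.26 ± 0.16 (adjusted p = 0.178). By day 35 the mice had closed up around CTRL, with 210.3 to 262.7 CPM and a median of 226.0 CPM, and on day 42 the median was 224.7 CPM (log2FC 0.01 ± 0.18).

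Tagln (chromosome 9, 45929619 to 45936058, minus strand) followed Acta2 closely. It lay between 192.4 and 238.4 CPM in CTRL, with a median of 204.7 CPM, and between 225.0 and 644.5 CPM on day 14, with a median of 312.0 CPM. All but 1 of the 12 mice of day 14 were above the highest CTRL mouse. The log2FC was 0.63 ± 0.15 on day 7 (adjusted p = 0.000393), 0.78 ± 0.14 on day 14 (adjusted p = 3.95e-06), the largest rise among the 10 genes on any day, and 0.46 ± 0.14 on day 21 (adjusted p = 0.00501). On days 28, 35 and 42 it was 0.24, -0.09 and -0.04, none called. Tagln shares 108 exon bases with Pcsk7 and 1241 with the antisense gene Gm48529 on the opposite strand. Their counts came to 19.1% and 1.88% of those of Tagln, and the treatment of strand in counting is not given in the sources used here.

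Actg2 (chromosome 6, 83512905 to 83536265, minus strand), the γ-smooth muscle actin, rose early. CTRL mice lay between 21.8 and 29.6 CPM (median 24.9 CPM), and on day 7 all but 1 of the 10 mice were above that range, with a median of 40.7 and a highest value of 54.98 CPM. Its log2FC was 0.71 ± 0.17 on day 7 (adjusted p = 0.000443) and 0.51 ± 0.16 on day 14 (adjusted p = 0.00550). On day 21 the value was 0.37 ± 0.16 and just missed the threshold (adjusted p = 0.0533). It passed when any of replicates 4, 6, 7, 8 or 11 of day 21 or replicate 9 of CTRL was left out, at an adjusted p of 0.0230 to 0.0469. On day 42 the median, 21.9 CPM, was below that of CTRL (log2FC -0.22 ± 0.19, adjusted p = 0.415). Actin genes are near-identical in their coding sequence, so reads shared between them make each isoform's level uncertain.

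Tpm2 (chromosome 4, 43514711 to 43523765, minus strand), the β-tropomyosin that lies along actin filaments, ranged from 54.9 to 75.8 CPM in CTRL with a median of 66.7 CPM. On day 7 the lowest, median and highest values were 70.8, 96.6 and 133.9 CPM, and on day 14 they were 65.7, 77.8 and 174.9 CPM. The log2FC was 0.54 ± 0.19 on day 7 (adjusted p = 0.0160) and 0.56 ± 0.18 on day 14 (adjusted p = 0.00666). The day 14 mean was carried by the upper part of the group, since 6 of 12 mice lay within the CTRL range. On day 21 the value was 0.36 ± 0.18 (adjusted p = 0.0965), and it passed without replicate 7 of day 21 (adjusted p = 0.0468).

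The call of Tpm2 on day 28, a log2FC of 0.44 ± 0.18 (adjusted p = 0.0456), rested on few animals. The library of replicate 10 of that day had 265.3 CPM of Tpm2, and the other 11 mice lay between 56.3 and 142.9 CPM. Without it the log2FC was 0.17 ± 0.15 (adjusted p = 0.400). The call was also lost without replicate 1 or 5 of day 28 or any one of replicates 2 to 10 of CTRL, at an adjusted p of 0.0527 to 0.110. In replicate 10 the 10 skeletal muscle markers summed to 1599 CPM, and in the other 74 libraries to between 4.52 and 18.6 CPM. Its sum of the cardiac markers was 2502 CPM, against at most 833.3 CPM elsewhere. Acta1, the skeletal muscle actin, stood at 584.4 CPM there, while the same library had the lowest Acta2 of its group, 172.4 CPM. All 5 tested skeletal markers and 8 of 9 tested cardiac markers were called higher on day 28 in the fit with that library.

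Des (chromosome 1, 75360329 to 75368579, plus strand) was the most even of the genes in CTRL, between 131.1 and 148.0 CPM with a median of 137.6 CPM. On day 14 the lowest, median and highest were 128.2, 173.5 and 322.2 CPM, with 9 of 12 mice above and 2 below the CTRL range. The log2FC was 0.30 ± 0.13 on day 7 (adjusted p = 0.0552), 0.53 ± 0.13 on day 14 (adjusted p = 0.000212) and 0.33 ± 0.13 on day 21 (adjusted p = 0.0236). The values of days 21 and 7 lay near the threshold. Leaving out replicate 5 or 10 of day 21 took the value of that day to 0.26 (adjusted p = 0.0751) or 0.25 (adjusted p = 0.0813), and leaving out replicate 1, 6 or 9 of day 7 brought day 7 past the threshold (adjusted p between 0.0474 and 0.0490). With all mice kept, Des on day 7 also passed with library size as the only scaling (adjusted p = 0.0355), with upper-quartile factors (0.0469), with a replicate block (0.0428) and in a fit of the 2 groups alone (8.48e-05). Des is also a gene of striated muscle, and its highest value on day 28, 297.2 CPM, was that of replicate 10. Without that library the day 28 log2FC was 0.14 ± 0.12, against 0.25 ± 0.13 with it, not called either way.

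**Figure D2:**
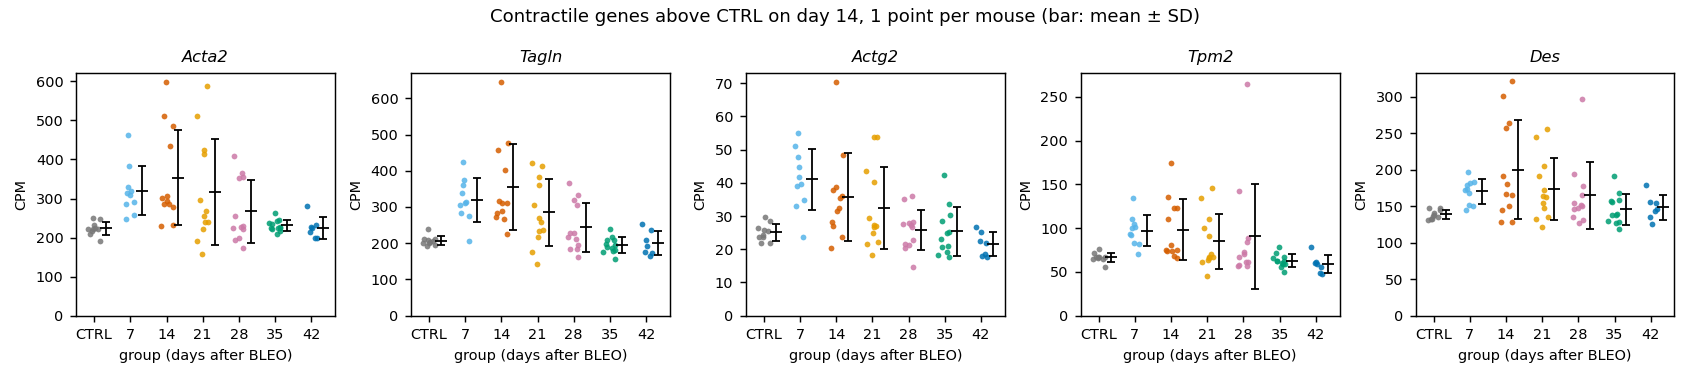
CPM (y axis) of Acta2, Tagln, Actg2, Tpm2 and Des in every mouse of CTRL and of days 7 to 42 after BLEO (x axis), with the mean ± SD of each group beside the points. Acta2 in CTRL lies between 190.9 and 250 CPM and on day 14 between 228.8 and 599.0 CPM, and the single high Tpm2 point of day 28 is replicate 10.

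Myh11, Cnn1 and Lmod1 took the opposite course. Myh11 (chromosome 16, 14194535 to 14291372, minus strand), the myosin heavy chain of smooth muscle, lay between 197.0 and 313.8 CPM in CTRL with a median of 257.0 CPM. On day 7 the median was 213.4 CPM (log2FC -0.23 ± 0.11, adjusted p = 0.0913). That difference passed without replicate 2 of CTRL (adjusted p = 0.0489) or replicate 4 of day 7 (adjusted p = 0.0476). On day 14 the lowest, median and highest were 105.6, 159.2 and 240.4 CPM, and all but 1 of the 12 mice were below every CTRL mouse. The log2FC was -0.64 ± 0.11 on day 14 (adjusted p = 4.52e-07), and it was then -0.59 ± 0.11, -0.67 ± 0.11 and -0.54 ± 0.11 on days 21, 28 and 35, all called. On day 42 the 7 mice lay between 138.2 and 183.3 CPM, below the whole CTRL range, with a log2FC of -0.68 ± 0.13 (adjusted p = 3.72e-05). This was the only case in which a gene of the set did not overlap between a BLEO-IPF group and CTRL. On that day 3.37% of all tested genes had every mouse below every CTRL mouse.

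Cnn1 (chromosome 9, 22099216 to 22109630, plus strand), which restrains the myosin ATPase on actin, had no called difference on day 7. Its median was 45.4 CPM in CTRL (28.7 to 53.4 CPM) and 48.1 CPM on day 7 (log2FC 0.04 ± 0.16). On day 14 the lowest, median and highest were 22.8, 30.6 and 50.95 CPM, and 6 of 12 mice were below the CTRL range. The log2FC was -0.50 ± 0.16 on day 14 (adjusted p = 0.00482), -0.54 ± 0.16 on day 21 (adjusted p = 0.00297) and -0.54 ± 0.16 on day 28 (adjusted p = 0.00389). On day 35 it was -0.30 ± 0.16 (adjusted p = 0.150), or -0.40 without replicate 4 of that day (adjusted p = 0.0387). The call of day 42, -0.51 ± 0.18 (adjusted p = 0.0357), was lost without replicate 1, 2 or 7 of day 42 or replicate 4, 7 or 9 of CTRL, at an adjusted p of 0.0506 to 0.103. The same difference missed the threshold when genes of low count were not filtered out (adjusted p = 0.0785).

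Lmod1 (chromosome 1, 135324807 to 135368065, plus strand) lay between 18.1 and 24.3 CPM in CTRL with a median of 20.4 CPM. Its lowest, median and highest values on day 14 were 9.39, 15.1 and 18.2 CPM, with 11 of 12 mice below the CTRL range. The log2FC was -0.54 ± 0.09 on day 14 (adjusted p = 4.98e-07), -0.38 ± 0.09 on day 21 (adjusted p = 0.000285) and -0.32 ± 0.09 on day 28 (adjusted p = 0.00275). So Lmod1, in contrast to Myh11, had its lowest value on day 14 and smaller differences later. On day 35 the value was -0.20 ± 0.09 (adjusted p = 0.0782), and it passed without replicate 4 of that day (adjusted p = 0.0496). On day 42 it was -0.29 ± 0.10 (adjusted p = 0.0332), a call that was lost without replicate 1, 2, 4 or 7 of day 42 or replicate 1, 7, 8 or 10 of CTRL, at an adjusted p of 0.0517 to 0.0685, and without the filter on low counts (adjusted p = 0.0840).

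Myl9 (chromosome 2, 156775420 to 156781658, plus strand), the light chain whose phosphorylation triggers contraction, had medians of 81.6 CPM in CTRL and 73.6 CPM on day 14. Its spread widened, from 74.1 to 88.9 CPM in CTRL to 62.3 to 114.5 CPM on day 14 and 48.3 to 110.5 CPM on day 21. No day was called, and the value farthest from 0 was a log2FC of -0.22 ± 0.10 on day 35 (adjusted p = 0.0950). On day 28, 9 of 12 mice were below the lowest CTRL mouse, and on day 35, 8 of 12 were. In an edgeR fit of the 2 groups alone Myl9 was called lower on day 35 (log2FC -0.21, adjusted p = 0.0108). Myocd (chromosome 11, 65176561 to 65269989, minus strand) was counted only 5 to 38 times per library, and differences of the size seen elsewhere in the set were hard to resolve at this depth. Its median was 1.36 CPM in CTRL, 1.91 CPM on day 14 and 1.30 CPM on day 42. The log2FC on day 14 was 0.52 ± 0.25 (adjusted p = 0.0660), and it passed without replicate 4 or 7 of CTRL or replicate 2 or 12 of day 14 (adjusted p between 0.0352 and 0.0488).

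**Figure D3:**
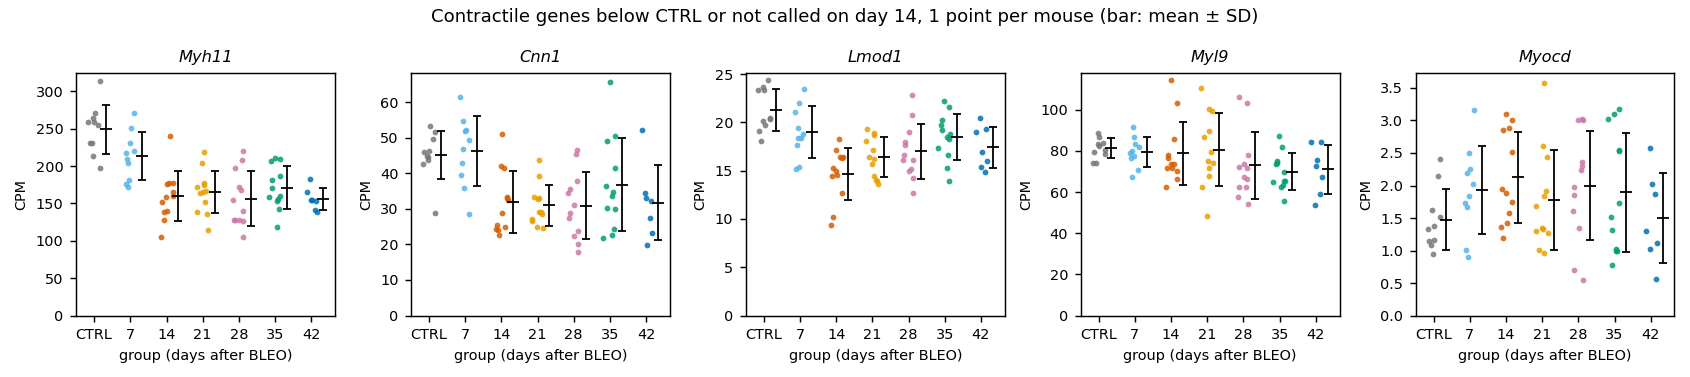
CPM (y axis) of Myh11, Cnn1, Lmod1, Myl9 and Myocd in every mouse of CTRL and of days 7 to 42 after BLEO (x axis), with the mean ± SD of each group beside the points. The 7 mice of day 42 have 138.2 to 183.3 CPM of Myh11, all below the lowest CTRL mouse at 197.0 CPM.

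The direct comparison of days 7 and 14 separated the early from the later changes. None of the 10 genes was higher on day 14 than on day 7 and 3 were lower, beside 9.48% and 7.55% of tested genes. No gene of the set was higher at an unadjusted p under 0.05 or by DESeq2. Over all tested genes, 1538 were higher and 1225 lower, or 1202 and 1631 when library size was the only scaling, under which the calls of the 10 genes were the same. The 3 genes that fell were Myh11 (log2FC -0.42 ± 0.11, adjusted p = 0.00437), Cnn1 (-0.54 ± 0.16, adjusted p = 0.0124) and Lmod1 (-0.37 ± 0.09, adjusted p = 0.00249). For Acta2 and Tagln the difference between the 2 days was 0.14 ± 0.15 and 0.15 ± 0.14, not called. From day 14 to day 42, 5 genes fell and 1 rose, beside 18.8% and 15.2% of tested genes. Acta2 fell by 0.65 (SE 0.18, adjusted p = 0.00285), Tagln by 0.82 (SE 0.16, adjusted p = 7.16e-05), Actg2 by 0.73 (SE 0.19, adjusted p = 0.00154), Tpm2 by 0.74 (SE 0.21, adjusted p = 0.00410) and Des by 0.43 (SE 0.14, adjusted p = 0.0136) on the log2 scale. The fall of Des was not called when only the groups compared were fitted (adjusted p = 0.0784).

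Lmod1 was the gene that rose again from day 14 to day 42, by a log2FC of 0.25 ± 0.10 (adjusted p = 0.0475). This call was lost without replicate 3, 5 or 6 of day 42 or replicate 7, 8, 9, 10 or 12 of day 14, at an adjusted p of 0.0549 to 0.111, and under 3 of the other settings. Myh11 and Cnn1 differed between days 14 and 42 by -0.04 ± 0.12 and -0.01 ± 0.18, not called.

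Per kilobase of exon, the order of the 10 genes in CTRL was Tagln (mean 103.9), Acta2 (101.7), Myl9 (69.95), Des (36.9), Myh11 (32.8), Tpm2 (22.9), Cnn1 (16.5), Actg2 (16.1), Lmod1 (5.39) and Myocd (0.230), all in CPM per kilobase. Ranges across the 10 CTRL mice overlapped between Tagln and Acta2 and between each neighbouring pair from Des down to Actg2. They did not overlap between Acta2 and Myl9, Myl9 and Des, Actg2 and Lmod1, or Lmod1 and Myocd. The ratio of Acta2 to Myh11 on this scale, taken within each mouse, is given as a description without a test. In CTRL it had a lowest value of 2.73, a median of 3.05 and a highest of 4.05. On day 14 it was 5.03, 7.18 and 13.03, above every CTRL mouse in 12 of 12 mice. On day 42 the ratio was still above that of most CTRL mice: the lowest, median and highest were 4.02, 5.03 and 5.85 and 6 of 7 mice were above the CTRL range. Of the 2 genes, Myh11 was called against CTRL on that day and Acta2 was not. Acta2 and Tagln kept a ratio near 1 throughout, with group medians between 0.908 and 1.06.

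**Figure D4:**
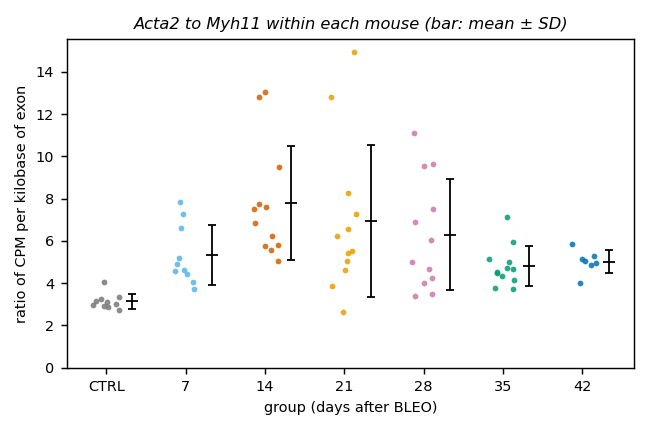
Ratio of Acta2 to Myh11 in CPM per kilobase of exon (y axis) in every mouse of CTRL and of days 7 to 42 after BLEO (x axis), with the mean ± SD of each group. The median is 3.05 in CTRL, 7.18 on day 14 and 5.03 on day 42.

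Mice of the same day differed widely. The coefficient of variation of Acta2 was 7.77% in CTRL, 34.4%, 42.7% and 30.1% on days 14, 21 and 28, and 6.22% on day 35. On day 14, 8 mice had 228.8 to 306.2 CPM of Acta2 and the other 4, replicates 1, 3, 4 and 8, had 433.8 to 599.0 CPM. On day 21 the 4 mice above the widest gap, replicates 1, 3, 5 and 10, had 413.5 to 587.9 CPM, and the 8 below it 156.5 to 296.5 CPM. On day 28 replicates 1, 2, 4 and 5 had 353.5 to 410.0 CPM and the other 8 had 172.4 to 253.9 CPM. The upper mice of each day were the same for Tagln as for Acta2.

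Whether the genes followed each other from mouse to mouse was tested within each group for 5 pairs of genes, 35 relations in all, of which 11 passed a two-sided permutation test of Pearson's r after adjustment over the 35. Acta2 and Tagln followed each other in 6 of 7 groups and not in CTRL (r = 0.15, adjusted permutation p = 0.754). On day 14 their r was 0.96 (permutation p = 3e-05, adjusted 0.000350), Spearman's rho was 0.83 (permutation p = 0.00157, adjusted 0.00916) and r without the 2 mice farthest from the median Acta2 was 0.92. On day 21 r was 0.96 (permutation p = 1e-05, the smallest the permutations can give, adjusted 0.000175), rho was 0.94 (permutation p = 6e-05, adjusted 0.00105) and r without the 2 farthest mice 0.97. Day 35 was less clear: r was 0.78 (permutation p = 0.00288, adjusted 0.0101) and rho was 0.64 (permutation p = 0.0284, adjusted 0.0995). There r without the 2 farthest mice was 0.58. Over the 8 mice below the gap alone, r was 0.64 on day 14, 0.97 on day 21 and 0.66 on day 28. Acta2 and Myh11 passed in 0 of 7 groups by this test, also at an unadjusted permutation p under 0.05, with r between -0.24 and 0.56. Without the 2 farthest mice of each group their r ran from -0.53 on day 7 to 0.93 in CTRL, values that were not tested.

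Col1a1, the α1 chain of type I collagen and the main product of matrix-secreting fibroblasts, followed Acta2 on the days of wide spread. On day 14 r was 0.76 (permutation p = 0.00477, adjusted 0.0152), rho was 0.69 (permutation p = 0.0157, adjusted 0.0686) and r without the 2 farthest mice 0.72. On day 21 r was 0.91 (permutation p = 7e-05, adjusted 0.000490), rho was 0.90 (permutation p = 0.000150, adjusted 0.00175) and r without the 2 farthest mice 0.79. On day 28 r was 0.93 (permutation p = 1e-05, adjusted 0.000175), rho was 0.94 (permutation p = 2e-05, adjusted 0.000700) and r without the 2 farthest mice 0.87. Over the 8 mice below the gap alone, r of Acta2 with Col1a1 was 0.16 on day 14, 0.46 on day 21 and 0.75 on day 28. That split was set by the values of Acta2 themselves. A narrower range of Acta2 can lower r by itself, so these values cannot show what the relation rests on. On day 7, when Acta2 and Col1a1 were both higher than in CTRL, r was -0.27 (adjusted permutation p = 0.722), and the difference between days was not tested.

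**Figure D5:**
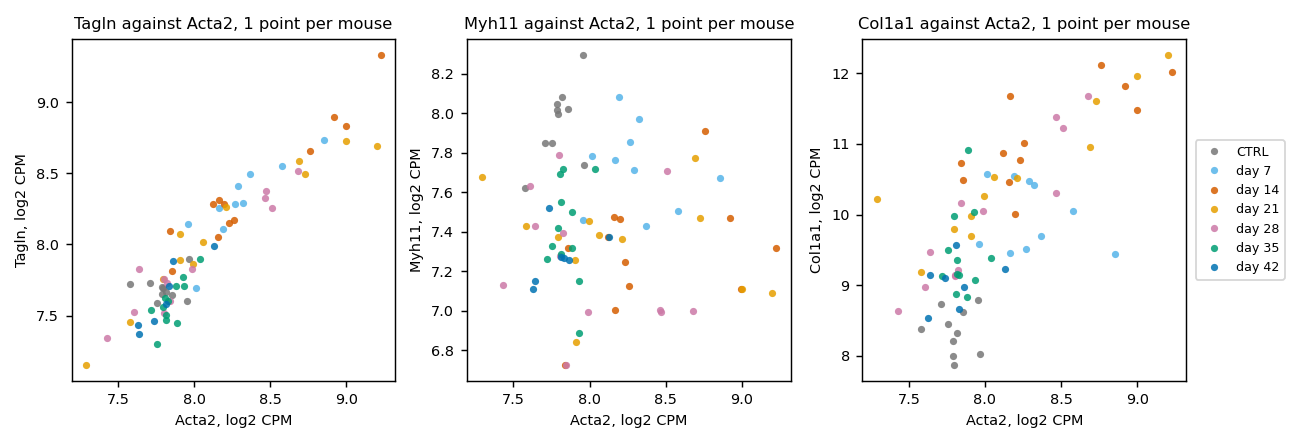
Log2 CPM of Tagln, Myh11 and Col1a1 (y axes) against log2 CPM of Acta2 (x axes), 1 point per mouse and 1 color per group. Tagln rises with Acta2 (r = 0.96 on days 14 and 21), and so does Col1a1 on days 14, 21 and 28 (r = 0.76, 0.91 and 0.93). Myh11 with Acta2 passed the permutation test in 0 of 7 groups (r between -0.24 and 0.56).

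The other pairs set the genes against striated muscle. Des and Myh6, the heavy chain of cardiac myosin, passed in 0 of 7 groups by the permutation test, with r between -0.20 and 0.53 and unadjusted p at or above 0.0709 for r. By Spearman's rho 1 of the 7 had an unadjusted permutation p under 0.05, day 28 (rho = 0.60, p = 0.0435, adjusted 0.127). Tpm2 and Acta1 passed on day 21 (r = 0.80, permutation p = 0.00209, adjusted 0.00914, rho = 0.65, permutation p = 0.0263, adjusted 0.0995) and on day 28 (r = 0.89, permutation p = 0.000320, adjusted 0.00187, rho = 0.62, permutation p = 0.0336, adjusted 0.107). Without the 2 farthest mice r was 0.67 on day 21 and 0.73 on day 28. Both relations concern levels of a few counts of Acta1, which lay between 0.0835 and 1.15 CPM on day 21 and had a median of 0.198 CPM on day 28, with 584.4 CPM in replicate 10. Without replicate 10 the day 28 values were r = 0.77 (permutation p = 0.00387, adjusted 0.0135) and rho = 0.51 (permutation p = 0.114, adjusted 0.331), and those of Des and Myh6 were r = 0.28 (permutation p = 0.396, adjusted 0.707) and rho = 0.48 (permutation p = 0.138, adjusted 0.351).

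Across all 75 mice, each gene's deviations from its group means gave the genes whose pattern was most like Acta2 and Myh11, as a description without a test. For Acta2, Tagln ranked first of 16220 genes (r = 0.93), Myl9 ranked 37 (r = 0.78), Actg2 54 (r = 0.77), Des 512 (r = 0.63) and Tpm2 598 (r = 0.61), while Lmod1, Cnn1 and Myh11 had r of 0.06, 0.06 and -0.02. Outside the set the closest to Acta2 were Pdlim7 (r = 0.86), an actin-associated PDZ and LIM domain protein, Surf4 (0.85), a cargo receptor of the endoplasmic reticulum, Tubb6 (0.84), a β-tubulin, Cald1 (0.83), the actin-binding caldesmon, and Calu (0.82), a calcium-binding protein of the secretory pathway. All 5 were called higher on day 14, from 0.69 ± 0.08 for Surf4 to 2.09 ± 0.21 for Tubb6. For Myh11, Lmod1 ranked 9 (r = 0.65) and Cnn1 27 (r = 0.60), and the closest genes outside the set were Ttc28 (0.72), Shank2 (0.72), Map1b (0.70), Gpc6 (0.69) and Fam129a (0.67). Of these, Ttc28, Shank2 and Fam129a were called lower on day 14 and Map1b and Gpc6 were not. The points share library, depth and scaling.

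A wider set of smooth muscle contractile and cytoskeletal genes also held genes of both directions. Of 24 genes tested, 10 were higher and 10 lower on day 14, where 32.4% and 29.9% of all tested genes were. On day 42, 1 was higher and 10 were lower, where 13.7% and 11.0% of all tested genes were. The median log2FC of the 24 genes was -0.00 on day 14 and -0.16 on day 42. The largest rises of day 14 were those of Actn1 (0.86 ± 0.13), the cross-linker α-actinin, Cald1 (0.77 ± 0.11) and Tpm1 (0.74 ± 0.07), another tropomyosin. Tpm1 lay between 328.1 and 393.8 CPM in CTRL and between 504.0 and 752.5 CPM on day 14, with no overlap, as in 9.46% of tested genes in the higher direction. The largest falls were those of Synm (-1.41 ± 0.19), the intermediate filament protein synemin that pairs with desmin, Itga8 (-1.21 ± 0.15), an integrin chain, and Pgm5 (-1.11 ± 0.16), a protein of adherens junctions in muscle. Synm lay between 125.4 and 158.6 CPM in CTRL and at most 80.9 CPM on day 14, again without overlap, as in 6.15% of tested genes in the lower direction. So Des rose on day 14 while Synm fell.

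Among the other actins, the cytoplasmic Actb (0.33 ± 0.10, adjusted p = 0.00214) and Actg1 (0.32 ± 0.08, adjusted p = 0.000226) were higher on day 14. Actc1, the cardiac actin, had a log2FC of -0.67 ± 0.30 (adjusted p = 0.0515), and Acta1 did not pass the filter, with a highest level outside day 28 of 1.22 CPM. Of 12 regulators of contractile genes, 2 were higher and 4 lower on day 14, beside 32.4% and 29.9% of all tested genes. Their median log2FC was -0.08. Srf itself had 46.8 ± 7.10 CPM (SD, n = 10) in CTRL and 46.7 ± 7.52 CPM (SD, n = 12) on day 14, with a log2FC of -0.00 ± 0.10. Its coactivator Mkl1 (myocardin-related transcription factor A) rose by 0.27 ± 0.08, and Fhl2, a LIM protein that binds these factors, by 2.01 ± 0.36. Foxf1 (-0.75 ± 0.15), a transcription factor of lung mesenchyme, Klf5 (-0.70 ± 0.11) and Foxo4 (-0.69 ± 0.07), which is known to bind myocardin, fell.

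Marker lists of other cells were measured beside these genes, and their part in the results was not tested. Of 12 matrix fibroblast and fibrosis genes, 11 were higher on day 14 (32.4% of all tested genes), 8 on day 35 (16.9%) and 4 on day 42 (13.7%). Their summed level had medians of 3283 CPM in CTRL, 15675 CPM on day 14 and 5389 CPM on day 42. The largest rises were those of the matrix protein Tnc (4.10 ± 0.40), Lrrc15 (4.07 ± 0.85), a marker of activated fibroblasts that was at or under 0.477 CPM in every CTRL mouse, and fibronectin Fn1 (3.32 ± 0.36). Col1a1 rose by 2.902 ± 0.335 on day 14, from a median of 325.4 to 1970 CPM, and was not called on day 42 (0.70 ± 0.35, adjusted p = 0.133).

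Pericytes wrap small vessels and share several genes with smooth muscle. Of the 10 pericyte markers, 4 were higher and 3 lower on day 14, near the 32.4% and 29.9% of all tested genes. Rgs5 (1.78 ± 0.40), Cspg4 (0.59 ± 0.15) and Pdgfrb (0.55 ± 0.12) rose the most, and Gucy1a1 (-0.52 ± 0.10), Abcc9 (-0.51 ± 0.14) and Trpc6 (-0.36 ± 0.08) fell the most. The summed level ranged from 671.0 to 787.5 CPM in CTRL and from 612.0 to 874.6 CPM on day 14, so the list had no single direction.

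Airway epithelium lies on airway smooth muscle. All 6 airway markers were lower at each of days 14, 21 and 28, and 1 was at day 42. The shares of all tested genes called lower on these days were 29.9%, 25.8%, 19.2% and 11.0%. Their summed level ranged from 20974 to 28355 CPM in CTRL and from 2448 to 16202 CPM on day 14, with medians of 26534 CPM in CTRL, 16012 CPM on day 7, 7259 CPM on day 14 and 16029 CPM on day 42. On day 7, 3 of the 6 markers were lower (21.0% of tested genes), and Myh11, Cnn1 and Lmod1 were not called. Between days 14 and 42, 3 of the 6 were higher (15.2% of tested genes). Over the same interval Lmod1 was called higher, and Myh11 and Cnn1 were not called. A link between these courses was not tested. On day 14 Cyp2f2 and Scgb1a1 of club cells had log2FC of -1.91 ± 0.26 and -1.61 ± 0.22, and Tppp3 of ciliated cells -1.74 ± 0.21. Arterial endothelium lines vessels wrapped in smooth muscle. Of its 7 markers, 4 were lower and 1 higher on day 14, beside 29.9% and 32.4% of tested genes. On day 42, 3 were lower and 2 higher, beside 11.0% and 13.7%. Their summed level ranged from 750.4 to 935.7 CPM in CTRL and from 445.2 to 669.9 CPM on day 14. Hey1 (-0.96 ± 0.16), Bmx (-0.92 ± 0.12) and Dll4 (-0.90 ± 0.17) fell on day 14 and Gja4 (0.48 ± 0.14) rose.

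Cardiac muscle RNA varied between mice of every group, with summed levels from 25.1 to 235.4 CPM in CTRL and from 20.2 to 396.5 CPM on day 14. On day 14, 2 of 9 tested cardiac markers were higher, Mybpc3 (1.66 ± 0.64) and Tnnt2 (1.21 ± 0.48), and Myh6 was not called (0.83 ± 0.81, adjusted p = 0.384). Myh6 had no count in 1 CTRL mouse and 1 mouse of day 14. The 5 tested skeletal markers had a median log2FC of 0.24 on day 14 and a summed level of 5.21 to 14.8 CPM, against 4.68 to 9.17 CPM in CTRL. Of 4 mesothelial markers Msln alone was called higher on day 14 (1.41 ± 0.25). Of 5 leukocyte markers Cd68 (2.21 ± 0.19) and Itgax (1.48 ± 0.18) were higher on day 14, and 1 was lower. Of 5 markers of alveolar type 2 cells 4 were lower on day 14, with Sftpa1 (-1.19 ± 0.22), Sftpc (-0.88 ± 0.18) and Lamp3 (-0.77 ± 0.20) the farthest from 0. The day 14 counts of these lists stand beside 32.4% of all tested genes called higher and 29.9% called lower.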

How the data were processed

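Lung RNA of 75 mice was analysed from the table of counts per gene that the authors deposited, without normalization. Per the labels and the study's methods, libraries were directional and read single-end, and reads were aligned with STAR 2.7.0f to GRCm38 with Ensembl release 96 annotation. The counting program, its use of strand and its treatment of reads with several places are not given in the sources used here.

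In R 4.3.3, differential expression was tested with edgeR 4.0.16 (TMM, quasi-likelihood F test), filterByExpr, 1 mean per group and Benjamini-Hochberg adjustment over the 16221 genes tested (threshold 0.05), in 8 comparisons. Log2 CPM used a prior count of 2. Levels between genes were divided by union exon length. Relations used 100000 permutations, or all of them for day 42. Total counts of 9240291 to 14665247 limit the precision. Simulated data held 200 changed genes, 100 at each size. There the comparison of day 14 with CTRL recovered 75 at a log2FC of 0.5 and 94 at 1, with 2 false calls. That of day 42 with CTRL recovered 59 and 93, with 13 false calls. In the real data more genes were called, 5262 higher and 4856 lower on day 14 and 2215 and 1786 on day 42. Recovery with that many changed genes was not tested, so these counts hold for the simulated data only. No labels give a run or batch. No 2 libraries of a group agreed within counting noise (lowest chi-square per degree of freedom 3.97 over 375 pairs).

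The 10 genes and the 12 other lists (contractile and cytoskeletal, actin isoforms, regulators, matrix fibroblast, pericyte, cardiac, skeletal, airway epithelium, arterial endothelium, mesothelium, leukocytes, alveolar type 2) were chosen with earlier results of these data known. From each list at most 3 genes higher and 3 lower with the largest log2FC on day 14 were named, besides Col1a1, Srf, Myh6, Acta1 and Actc1, and the 5 genes most like Acta2 and Myh11. For 1 of the genes that this rule names, the result is not reported here. The non-overlap of Tpm1 and of Synm was noticed in the values and falls outside this rule. Alternatives were library-size and upper-quartile scaling, no filter, at least 10 counts in every mouse, a replicate block, a fit of the compared groups only, DESeq2 1.42.0 (the tool of the study), a log2FC of at least 0.5, and leaving out each mouse.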

Additional observations from a re-analysis of the deposited data

Results flagged for a closer look

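In CTRL, 3 values from 2 mice lay far from the others of their group, by a test of the gap at one end of 10 values. Replicate 6 had the highest Tagln, 238.4 CPM, and replicate 2 the lowest Cnn1, 28.7 CPM, and the lowest Tpm2, 54.9 CPM. Over the 30 groups of values examined, chance alone flags about 1 in 20.

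The difference from CTRL changed between days for 8 of the 10 genes, by the direct contrast of the days in the same edgeR fit. From day 7 to day 14 the log2 difference was -0.42 for Myh11, -0.54 for Cnn1 and -0.37 for Lmod1. From day 14 to day 42 it was -0.65 for Acta2, -0.82 for Tagln, -0.73 for Actg2, -0.43 for Des and -0.74 for Tpm2, and 0.25 for Lmod1.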

How the results depend on the processing

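Over the settings that kept all mice and asked for no minimum log2FC, 531 of 552 values kept their call, 9 lost it, 12 gained it and 0 changed direction while called. Over these settings and the refits without 1 mouse together, 61 of 1208 values not called changed sign. The number of genes called, higher and lower together, moved by over 1.5 times in 5 cases. With a log2FC of at least 0.5 required it was 3 on day 21, 2 on day 28 and 1 between days 7 and 14. It was 3 on day 35 when only the compared groups were fitted, and 1 on day 42 without the filter, where 38610 genes entered the adjustment. Leaving out 1 mouse gave 4 to 5 genes on day 7, 8 to 9 on day 14, 5 to 8 on day 21, 3 to 4 on day 28, 1 to 3 on day 35, 1 to 3 on day 42, 3 between days 7 and 14 and 5 to 6 between days 14 and 42. Of these 1660 refitted values, 54 changed call.

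The replicate numbers did not pair the mice. Over 204 same-numbered pairs of mice the median correlation of deviations was 0.0057, against 0.0018 for other pairs, and 7 of 75 mice correlated best with their own number. With the replicate block Des on day 7 (adjusted p = 0.0428), Myocd on day 14 (0.0315) and Actg2 on day 21 (0.0349) were called, and Tpm2 on day 28 (0.0598) and Lmod1 between days 14 and 42 (0.0784) were not. Library-size scaling of the relations left 11 of 35 called, as did leaving out replicate 10 of day 28, both added after the data were seen. The depth limits Myocd most, and it gave no value where at least 10 counts in every mouse were required.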
